A study of Mus musculus with 11 samples.

Results

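The expression of 42 interferon-stimulated genes was followed across the gingival epithelium of 11 Langerin-DTR mice. The genes were chosen by name, as a list of known interferon-stimulated genes, and all 42 of the 42 had values among the 19170 genes with values in the series. All mice carried the same transgene, in which the langerin promoter drives the receptor for diphtheria toxin (DT), so that DT kills any cell that expresses langerin. PBS was given to 5 mice, the PBS group, and DT to 6 mice, the DT group, at postnatal days 17, 24 and 31, and tissue was taken at 8 weeks of age. Each library is called a mouse here, although the labels name replicates and do not say whether a replicate is 1 animal or a pool. The p-values therefore measure the spread between these samples.

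Interferons are secreted by cells that sense viral or bacterial nucleic acid, or, in the case of interferon gamma, by activated lymphocytes. Type I and type III interferons act through the kinases Jak1 and Tyk2 on a complex that holds Stat2 and Irf9 and binds an element called the ISRE in the promoters of their targets. Interferon gamma acts through another element, the GAS. Epithelia of barrier tissues express many of these targets at a low tonic level without infection, and the products degrade viral RNA, block translation, tag proteins with Isg15 or attack the vacuoles of intracellular pathogens.

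The promoters of 5 members are shown because these genes differ below in how they varied over the mice. Each line holds the 120 bases before the annotated start, 5′ to 3′ on the strand of the gene, from the RefSeq promoters of build GRCm38.p6, with matches to the ISRE core (GAAANNGAAA) or the GAS core (TTCNNNGAA) on either strand in capitals.
Isg15 (chr4:156200819-156200938, minus strand): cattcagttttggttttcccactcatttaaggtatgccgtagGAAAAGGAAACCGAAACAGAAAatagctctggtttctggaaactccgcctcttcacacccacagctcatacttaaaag
Ifit1 (chr19:34640769-34640888, plus strand): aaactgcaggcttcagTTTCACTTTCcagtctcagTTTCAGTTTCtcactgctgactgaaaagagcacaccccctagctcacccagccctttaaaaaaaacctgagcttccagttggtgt
Igtp (chr11:58199436-58199555, plus strand): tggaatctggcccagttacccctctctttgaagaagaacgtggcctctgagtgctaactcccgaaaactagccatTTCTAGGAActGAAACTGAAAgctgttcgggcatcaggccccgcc
Irf1 (chr11:53769894-53770013, plus strand): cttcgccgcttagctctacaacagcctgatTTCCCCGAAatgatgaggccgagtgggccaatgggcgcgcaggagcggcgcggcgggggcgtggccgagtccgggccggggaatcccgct
Gbp2 (chr3:142620543-142620662, plus strand): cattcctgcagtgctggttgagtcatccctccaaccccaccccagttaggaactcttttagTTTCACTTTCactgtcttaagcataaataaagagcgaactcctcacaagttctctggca
In Isg15 the capitals are 3 overlapping ISRE cores, and in Ifit1 they are 2 ISRE cores on the opposite strand. Igtp has a GAS core followed by an ISRE core, Irf1 has a GAS core alone, and Gbp2 has an ISRE core on the opposite strand. A window of 300 bases, with 250 before and 50 after the start, was at hand for 33 of the 42 members. The ISRE core was found in 15 of these 33, against 3.99% of all 27025 genes with a window, and the GAS core in 9 of 33, against 9.55% of all genes. Either core was found in 19 of 33 (57.6%), against 12.9% of all genes. The members without a core in the window included Oasl2, Irf7, Irf9, Xaf1 and Dtx3l, and also Oasl1 and Trim25. This says only that these letters are not within this stretch.

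Depth lay between 17509328 and 24325513 reads on genes (PBS against DT, p = 0.496 by a two-sided exact permutation test with 462 splits). The values are normalized counts, in which the authors divided the reads of a mouse by its size factor. The libraries were mostly epithelial by their markers, with the summed level of 9 epithelial genes at 2590732 to 2854130 normalized counts per mouse. Markers of natural killer cells, 5 genes with values, summed to 7.85 to 36.2 normalized counts, and the T cell genes Cd3d, Cd3e and Cd3g stayed at or below 16.1 in every mouse. Thy1 of the T cell list, however, lay between 373 and 495. Other lists had higher sums, among them the fibroblast markers at 1109 to 1594 and the macrophage markers at 340 to 658 normalized counts. Cd207, which encodes langerin, lay between 10.0 and 43.0 after PBS and between 15.8 and 21.6 after DT (log2 fold change -0.19, limma adjusted p = 0.853). A lasting loss of langerin transcript was thus not detected at this age. All 7 genes of the Langerhans cell list had negative log2 fold changes (median -0.35), and 0 of 7 were called. In bulk epithelium fewer cells of a type and less RNA per cell cannot be told apart. Of 19170 genes, 60 (0.313%) were higher and 47 (0.245%) lower after DT at an adjusted p under 0.1 by limma. Among the 13 marker lists, calls were found in the immediate early genes, where 8 of 10 rose, and in no other list.

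The first question was whether the interferon-stimulated genes differed between DT and PBS. They did not pass the test in either direction. By limma at an adjusted p under 0.1, 0 of 42 were called higher, against 0.313% of all genes. As many, 0 of 42, were called lower, against 0.245% of all genes. At these shares few or no calls are met in lists of this size. The counts of 0 here and below therefore do not set the members apart from all genes. At an unadjusted p under 0.05, 0 members were higher, against 5.31% of all genes, and 3 members (7.14%) were lower, against 6.19% of all genes. The groups overlapped in all 42 members. They lay apart for only 2.11% of the 13477 genes whose mean was 10 normalized counts or more, so 0 members apart is close to that share. The log2 fold changes had a median of -0.04, against -0.01 over all genes, with 18 members above 0 and 24 below it. Of the 42 intervals of 95%, 39 held 0. The intervals were wide, from -0.04 to 0.20 for Trim25 to -1.03 to 1.70 for Oas3, and in 16 members they reached a 2-fold change in at least 1 direction. No second tool was run on these values.

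**Figure D1:**
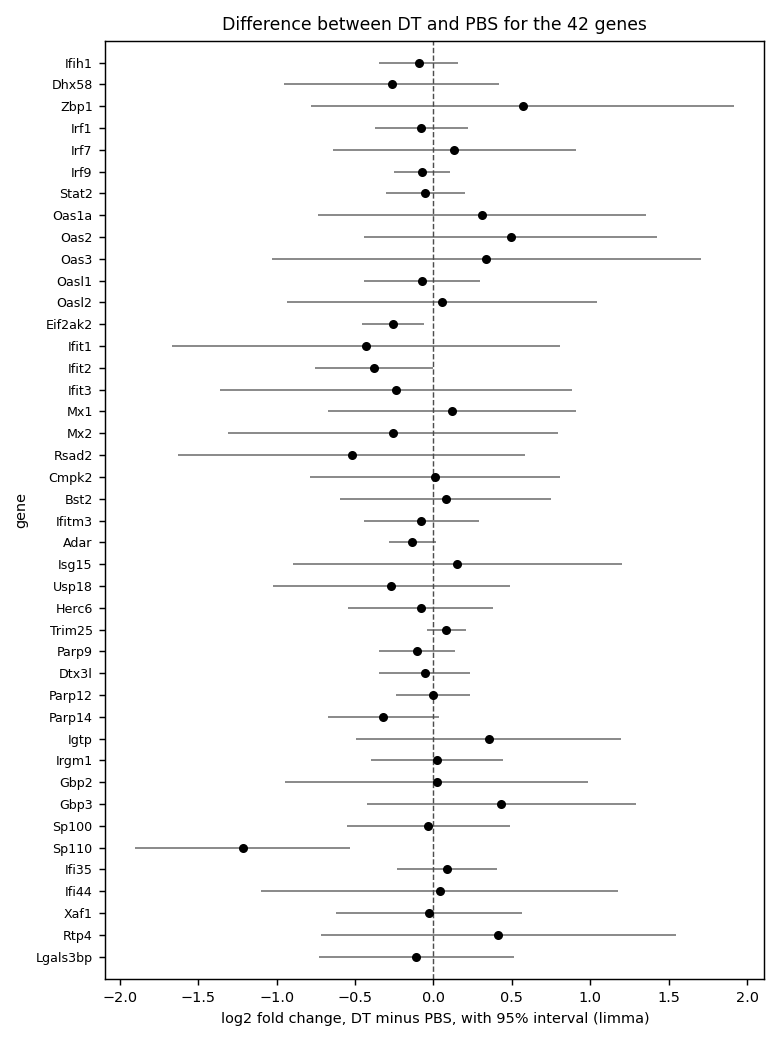
Log2 fold change of each of the 42 genes, DT minus PBS (x axis), with its 95% interval from limma; the dashed line marks no difference. The interval holds 0 for 39 genes and lies below 0 for Sp110, Eif2ak2 and Ifit2, none of which passed the adjusted threshold.

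The 3 members with an unadjusted p under 0.05 were all lower after DT. Sp110, a nuclear body protein, had 18.1, 13.6, 10.1, 12.7 and 15.7 normalized counts in the 5 PBS-treated mice in order of their numbers, and 3.02, 4.59 and 10.7 as the lowest, median and highest after DT. DT 4 was above PBS 3, and the other DT-treated mice lay below every PBS-treated mouse. Its log2 fold change was -1.22 (95% interval -1.90 to -0.53, n = 5 and 6, limma adjusted p = 0.167), at a level where counting error alone gives an SD of 0.46 on the log2 scale, against a measured SD of 0.52 within groups. Eif2ak2, the kinase PKR, which stops translation when it binds double-stranded RNA, had 475, 393, 408, 381 and 506 normalized counts after PBS, and 321, 351 and 423 after DT. The groups overlapped, with DT 5 and DT 4 among the PBS values (log2 fold change -0.26, 95% interval -0.45 to -0.06, limma adjusted p = 0.295). Ifit2, whose protein binds foreign RNA, had 78.1, 51.5, 84.5, 65.6 and 102 normalized counts after PBS, and 46.1, 56.4 and 80.2 after DT. PBS 2 was among the low DT values and DT 1 among the high PBS values (log2 fold change -0.38, limma adjusted p = 0.433).

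The 3 smallest p-values among members with a positive log2 fold change belonged to Trim25, Oas2 and Gbp3. Trim25, a ubiquitin ligase that acts with the RNA sensor RIG-I, had 2040, 1791, 1927, 2104 and 1935 normalized counts after PBS, and 1867, 2050 and 2266 after DT, with overlapping groups (log2 fold change 0.08, limma adjusted p = 0.641). Oas2, which makes the oligoadenylates that activate RNase L, had 37.3, 5.83, 33.2, 33.7 and 38.8 normalized counts after PBS, and 13.5, 37.0 and 62.8 after DT. Its difference of 0.49 on the log2 scale (limma adjusted p = 0.722) was 0.01 without PBS 2, the one low value of its group. Gbp3, a GTPase that coats the vacuoles of pathogens, had 38.5, 11.7, 56.3, 21.9 and 61.9 after PBS, and 19.4, 45.1 and 91.7 after DT (log2 fold change 0.43, limma adjusted p = 0.734; 0.08 without PBS 2 and 0.22 without DT 3). Its highest value was that of DT 3 and its lowest that of PBS 2.

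Among the sensors of nucleic acid, 0 of 3 passed the test. Ifih1, which encodes the RNA sensor MDA5, had 329 ± 51.2 normalized counts (SD, n = 5) in the PBS group and 308 ± 47.7 (SD, n = 6) in the DT group. Dhx58, which encodes LGP2, a relative that modulates MDA5, had 54.8 ± 19.4 and 48.2 ± 25.2. Zbp1, a sensor of Z-form nucleic acid that can start necroptosis, was low, at 0 to 18.1 normalized counts after PBS and 2.54 to 13.1 after DT, where the count of 0 in PBS 2 allows up to 2.92 normalized counts. It had the largest positive log2 fold change of the members, 0.57 (95% interval -0.78 to 1.92).

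The 4 transcription factors were nearly level between the groups, with log2 fold changes from -0.08 to 0.13. Irf7, the factor that amplifies the interferon response, had 71.3, 36.0, 126, 70.1 and 127 normalized counts after PBS, and 31.3, 99.9 and 138 after DT. PBS 2 and DT 2 were low, and the highest mouse of a group exceeded the lowest by 3.53-fold after PBS and by 4.43-fold after DT (log2 fold change 0.13, 95% interval -0.64 to 0.91, limma adjusted p = 0.927). Irf9, the DNA-binding part of the complex on the ISRE, had 781, 592, 845, 633 and 675 after PBS, and 591, 668 and 717 after DT (log2 fold change -0.07, limma adjusted p = 0.796). Its highest mouse exceeded its lowest by 1.43-fold and 1.21-fold within the groups. Stat2, its partner, had 334, 211, 286, 320 and 267 after PBS, and 228, 268 and 316 after DT (log2 fold change -0.05, limma adjusted p = 0.906). Irf1, a target of interferon gamma and itself an activator, had 173, 137, 204, 156 and 214 after PBS, and 122, 173 and 195 after DT, and here DT 5, not DT 2, was the lowest of its group (log2 fold change -0.08, limma adjusted p = 0.876). Irf7 thus spread over several fold among mice in which Irf9, Stat2 and Irf1 stayed within 1.6-fold of their lowest value in each group.

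Of the oligoadenylate synthetase genes and Eif2ak2, 0 of 6 passed the test. Oas3 had the largest spread within groups of all members whose mean was 10 normalized counts or more (SD 1.36 on the log2 scale). Its values were 38.5, 0.972, 40.2, 22.8 and 40.9 after PBS, and 10.1, 24.4 and 41.2 after DT. The value in PBS 2 is a single read, and DT 2 was the lowest after DT (log2 fold change 0.34, limma adjusted p = 0.885; -0.50 without PBS 2). Oasl2, of the same family, went from 31.1 in PBS 2 to 280 in PBS 5, which is 9.01-fold, and from 56.6 in DT 2 to 237 in DT 5. Oas1a followed, with 8.75 in PBS 2 and 16.1 in DT 2 against 27.3 to 77.4 in the other mice. Oasl1, a repressor of Irf7 translation, did not share this range, with 33.7 to 59.8 after PBS and 34.2 to 52.0 after DT.

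The Ifit genes had negative log2 fold changes in 3 of 3 cases, and 0 passed the test. Ifit1, which holds viral RNA without a host cap, had 71.3, 14.6, 67.4, 51.9 and 137 normalized counts after PBS, and 5.91, 57.2 and 80.5 after DT. DT 2 and PBS 2 were the low mice again (log2 fold change -0.43, 95% interval -1.67 to 0.80, limma adjusted p = 0.832), and without DT 2 the log2 fold change was 0.09. Ifit3, its binding partner, was measured at 0.911 to 14.7 normalized counts and is limited by counting error.

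Among the other antiviral effectors, 0 of 7 passed the test. Adar, which edits double-stranded RNA, varied least apart from Trim25, with 990, 760, 932, 882 and 861 normalized counts after PBS, and 722, 805 and 914 after DT (log2 fold change -0.13, limma adjusted p = 0.491). Ifitm3, which blocks entry of viruses by fusion, was high in PBS 3 (1253) and PBS 5 (1167) and lay between 602 and 956 in the other mice. Bst2, or tetherin, which holds budding virions at the cell surface, lay at 21.4 to 87.1 in the PBS group and at 32.1 to 63.8 in the DT group. Rsad2, which encodes viperin, went from 1.94 in PBS 2 to 38.8 in PBS 5, and lay between 5.91 and 17.7 after DT. The GTPase genes Mx1 and Mx2 and the nucleotide kinase gene Cmpk2 had means below 10 normalized counts.

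Of Isg15 and the genes of its conjugation, 0 of 4 passed the test. Isg15, a ubiquitin-like protein, had 74.7, 25.3, 136, 48.3 and 189 normalized counts after PBS, and 24.5, 95 and 166 after DT, so that the highest mouse exceeded the lowest by 7.48-fold and 6.77-fold. PBS 2 and DT 2 were at the same low level, and the log2 fold change between the groups was 0.15 (95% interval -0.90 to 1.20, limma adjusted p = 0.939). Usp18, which removes Isg15 and restrains the interferon receptor, had 36.9 ± 18.6 normalized counts (SD, n = 5) in the PBS group and 29.3 ± 13.2 (SD, n = 6) in the DT group. Herc6, the ligase that attaches Isg15 in mice, had 24.8 ± 4.17 and 23.9 ± 6.74.

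The 4 genes of the PARP family and its partner had log2 fold changes from -0.32 for Parp14 to 0.00 for Parp12, and 0 of 4 passed the test. Parp9 and Dtx3l, which form a complex that modifies histones and ubiquitin, had 383 ± 75.1 and 369 ± 84.8 normalized counts (SD, n = 5) in the PBS group, and 353 ± 36.9 and 348 ± 41.2 (SD, n = 6) in the DT group. PBS 2 and DT 2 were the lowest of their groups for Parp9, Dtx3l and Parp12. For Parp14 PBS 2 was the lowest at 90.4, and DT 6 the lowest after DT at 97.1.

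Of the remaining members, Ifi44 and Rtp4 were among the 4 with the largest spread. Ifi44 had 39.6, 5.83, 22.1, 22.8 and 22 normalized counts after PBS, and 3.38, 23.7 and 42.2 after DT (log2 fold change 0.04, limma adjusted p = 0.987). Rtp4, a chaperone of receptors that also has antiviral activity, had 31.7, 4.86, 56.3, 8.20 and 45.1 after PBS, and 14.4, 28.3 and 55.9 after DT (log2 fold change 0.41, limma adjusted p = 0.822). In both genes PBS 2 and DT 2 were the lowest of their groups, and in Rtp4 PBS 4 was low as well. Xaf1, a binder of apoptosis inhibitors, lay between 20.3 and 59.9, Lgals3bp between 37.9 and 112, Ifi35 between 131 and 237 and Sp100, the namesake of a nuclear body, between 20.4 and 57.7 normalized counts over all 11 mice.

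Levels were compared between genes per kilobase of exon, with lengths from GENCODE release 21. The order is approximate, because the methods of the study follow the guide of a kit that reads the 3′ end while the labels name a kit that covers whole transcripts. Ifitm3 was the highest member at 1240 normalized counts per kilobase, followed by Trim25 at 351, Isg15 at 128 and Irf9 at 127, a pair that did not differ beyond the spread of Isg15. The lowest were Sp110, Mx1 and Mx2 at 1.42 to 1.70 normalized counts per kilobase.

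The second question was how the members varied between mice of the same group. Over the 36 members whose mean was 10 normalized counts or more, the median SD within groups was 0.50 on the log2 scale, against 0.15 over all 13477 such genes. The spread falls with the level of a gene, so it was also compared within bands of level. In the band of 10 to 100 normalized counts the median SD was 0.81 for 20 members and 0.35 for all 3458 genes, and in the band of 100 to 1000 it was 0.26 for 15 members and 0.13 for all 6402 genes. The SD exceeded 2 times the SD expected from counting reads alone in 32 of the 36 members. It was 1.00 against 0.12 for Oasl2, 1.06 against 0.15 for Isg15 and 0.77 against 0.15 for Irf7. The smallest spreads were those of Trim25 (0.10) and Adar (0.13). Spread was seen in both groups, with a median SD over members of 0.53 after PBS and 0.42 after DT. Both were above those of all genes, 0.17 and 0.12.

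**Figure D2:**
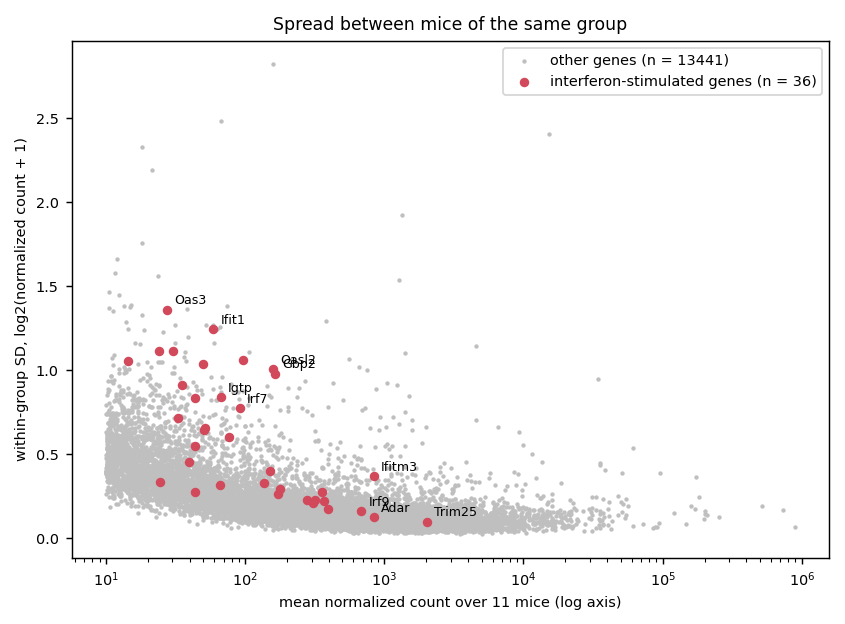
SD within groups of log2(normalized count + 1) (y axis) against the mean normalized count over 11 mice (x axis, log scale), for the 36 interferon-stimulated genes with a mean of at least 10 (red) and the other genes of the 13477 (grey). Most members lie above the bulk of genes of the same level, and Trim25 and Adar lie within it.

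The members varied together. PBS 2 was the lowest PBS-treated mouse in 33 of the 36 members, which is the case in 14.7% of all genes whose mean was 10 normalized counts or more. DT 2 was the lowest DT-treated mouse in 23 of 36, against 14.7% of all genes, and the same 23 members were lowest in PBS 2 too, against 2.43% of all genes. PBS 5 was the highest PBS-treated mouse in 20 members (55.6%, against 24% of all genes) and PBS 3 in 12 (33.3% against 21.1%), and DT 5 was the highest DT-treated mouse in 17 (47.2% against 16.5%). Averaged over the 36 members on the log2 scale, PBS 2 deviated from the mean of its group by -0.98 and DT 2 by -0.66. PBS 5 and PBS 3 deviated by 0.52 and 0.43, and the other 7 mice lay between -0.17 and 0.31. These mice were singled out after their values were seen.

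**Figure D3:**
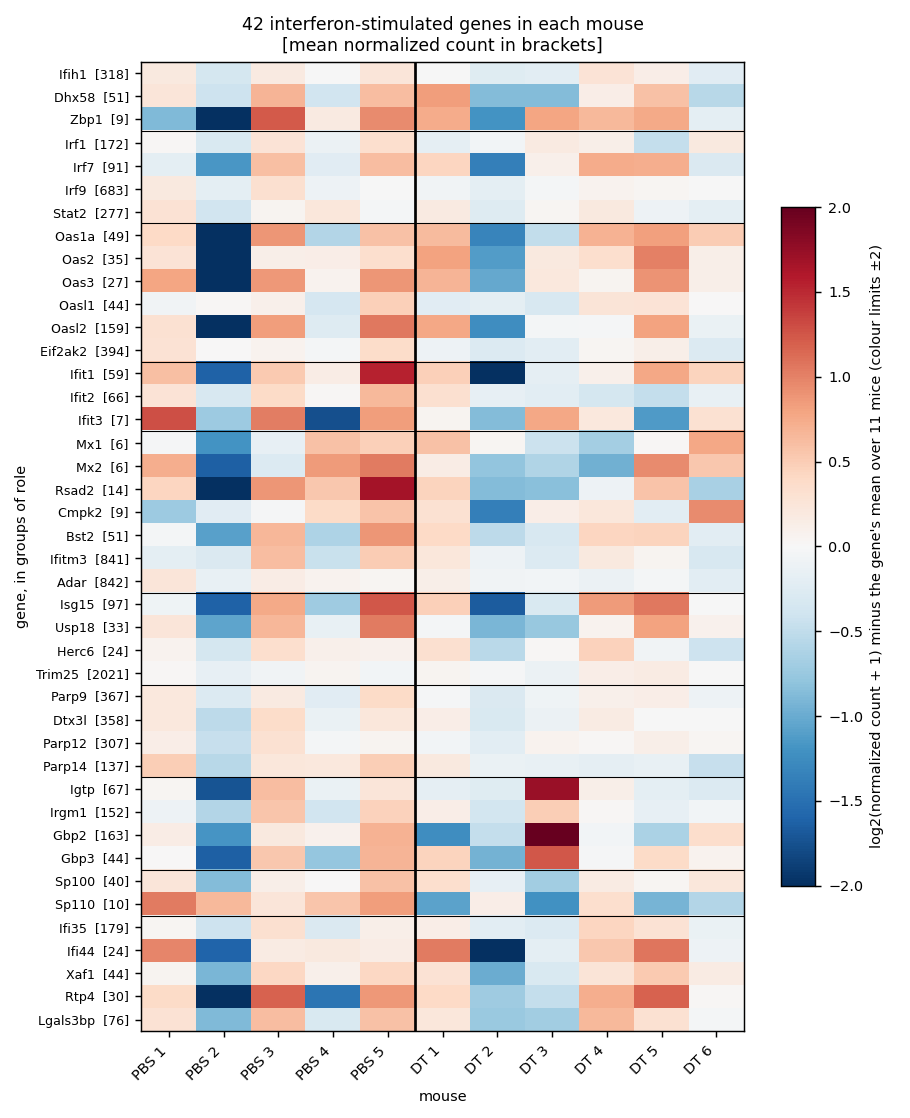
Each cell is log2(normalized count + 1) of a gene in a mouse minus the mean of that gene over the 11 mice (colour, limits ±2), with genes in groups of role (rows) and PBS to the left of DT (columns). PBS 2 and DT 2 are blue down most of the rows, PBS 3 and PBS 5 are mostly red, and DT 3 is red for Igtp, Gbp2, Gbp3 and Irgm1.

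With the mean of each group removed, the median correlation over the 630 pairs of members was 0.65 across the 11 mice, and 97.3% of the pairs were positive, against 49.996% of the pairs of all genes. A single principal component held 75.3% of the variance of the members and 34.9% of that of all genes. These correlations are a description, since all genes of a mouse share its library and its depth. Without PBS 2 and DT 2 the median was 0.41, with 80.0% of the pairs positive, and within the 6 DT-treated mice alone it was 0.56, with 80.6% positive. Each member was also compared with the mean of the others. The correlation was above 0.5 in 32 of 36 members (88.9%), against 9.63% of all genes, and was highest for Oasl2 (0.98), Oas1a (0.96), Dtx3l (0.95) and Isg15 (0.94). The 4 members at or below 0.5 were Gbp2 (0.26), Irf1 (0.39), Oasl1 (0.44) and Trim25 (0.497).

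**Figure D4:**
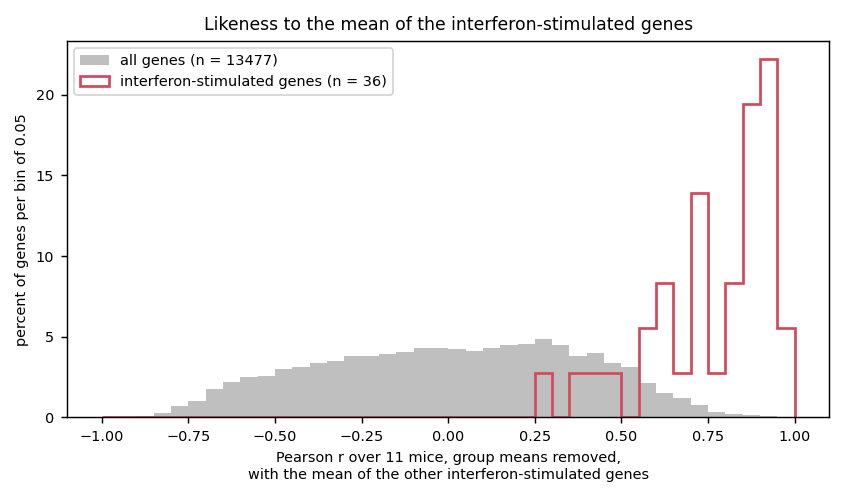
Distribution of the Pearson correlation, over 11 mice with group means removed, of each gene with the mean of the other interferon-stimulated genes (x axis), as percent of genes per bin (y axis), for all 13477 genes (grey) and 36 members (red line). The members pile up at the right, with 32 above 0.5, and the 4 others lie from 0.26 to 0.497.

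Other measures of the mice were set beside the mean of the members. DT 2 had the most reads of all mice, 24325513, and PBS 2 had 20783015. Reads correlated with the member mean at -0.54, group means removed. The summed level of the Langerhans cell markers was highest in PBS 3 (5544 normalized counts) and PBS 5 (4473), both high for the members, but it was 2901 in PBS 2 and 3073 in DT 2, against 1703 to 3264 in the remaining mice. Its correlation with the member mean was 0.31, that of the macrophage markers 0.35, of the neutrophil markers 0.55, of the T cell markers 0.44 and of the B cell markers 0.41. The muscle markers stood at 0.42, the natural killer markers at 0.22, the fibroblast markers at 0.09, the red blood cell markers at 0.07, the endothelial markers at -0.33, the epithelial markers at -0.06 and the immediate early genes at 0.03. The neutrophil sum, of 4 genes with values out of 7, came mostly from Cxcr2, which stood at 0.51 by itself. Most of the T cell sum, of 8 genes out of 12, came from Thy1, which stood at 0.30. The fibroblast sum came mostly from Dcn, which stood at 0.35 by itself. The collagen genes of that list ran opposite to the members, with Col1a1 at -0.82, Col1a2 at -0.64 and Col3a1 at -0.60. PBS 2 had the highest value of all mice for each of these collagen genes (103, 90.4 and 54.4 normalized counts). Markers of plasmacytoid dendritic cells, the main producers of interferon alpha, stood at -0.45. That sum came mostly from Bcl11a and Tcf4, which other cells express too, and Siglech, the defining marker, was at 0 to 7.92 normalized counts. The part of depth and of these cells in the pattern was not tested.

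**Figure D5:**
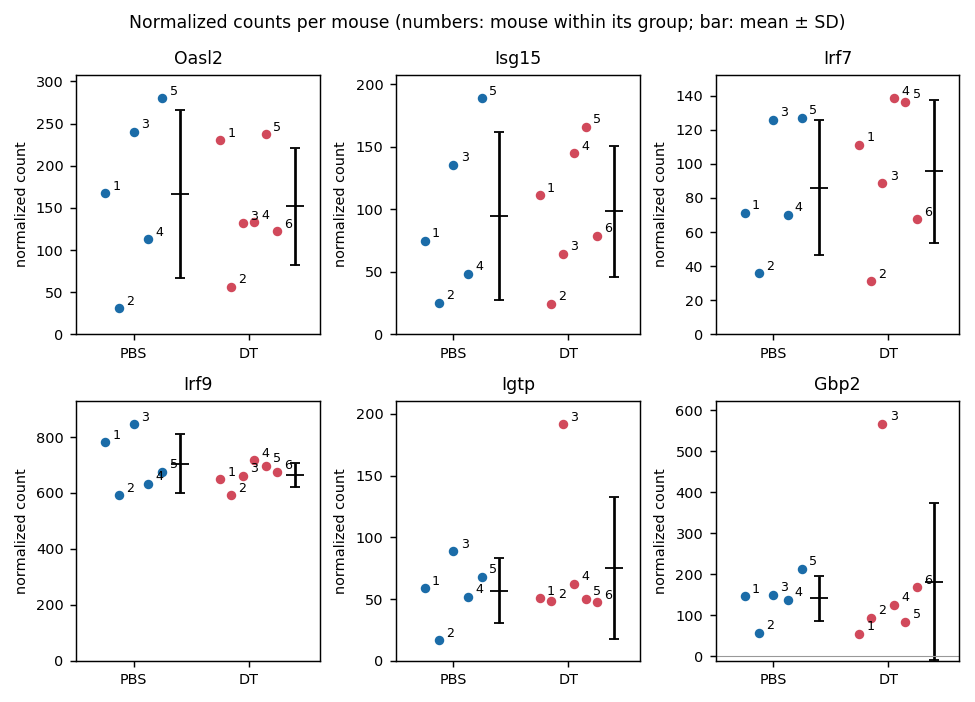
Normalized counts (y axes, from 0 apart from the Gbp2 panel, which extends below 0 for the SD bar) of 6 members in each mouse of the PBS (blue) and DT (red) groups, with the number of the mouse beside its point and the mean ± SD as a black bar. Mouse 2 of each group is the lowest for Oasl2, Isg15, Irf7 and Irf9, whereas DT 3 stands above all other mice for Igtp and Gbp2.

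Of the 36 members, the 4 interferon-inducible GTPase genes differed from the others in a single mouse, DT 3. These proteins guard against intracellular pathogens and are induced strongly by interferon gamma. Gbp2 had 146, 57.3, 150, 138 and 213 normalized counts after PBS, and 55.0, 110 and 566 after DT. The 566 belong to DT 3, and the other DT-treated mice reached at most 168. Its log2 fold change of 0.02 (limma adjusted p = 0.992) was -0.40 without DT 3. Igtp had 58.8, 16.5, 88.5, 51.9 and 68.2 after PBS, and 47.3, 50.2 and 191 after DT, the 191 again in DT 3 and the others at most 62.3 (log2 fold change 0.35, limma adjusted p = 0.793). Gbp3 was at 91.7 and Irgm1 at 206 in DT 3, the highest of the DT-treated mice in both, although Irgm1 was higher in PBS 3 (215). In the same mouse Isg15 was at 64.5, Irf7 at 88.6 and Oasl2 at 132, within the range of its group, and 5 of the 36 members, Dhx58, Oasl1, Trim25, Sp100 and Ifi35, were at the lowest level of the group.

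Other genes of the same family in the wider lists were counted after this was seen. Of 16 GTPase genes with values, the 4 members included, 11 were highest of all 11 mice in DT 3, against 7.2% of all genes. These 11 hold Gbp2, Igtp and Gbp3, whose values prompted the count. Iigp1 was at 95.7 normalized counts in DT 3 and at most 29.4 in the other mice, Irgm2 at 157 and at most 95, and Gbp4 at 27.2 and at most 7.92. Gbp5 (21.2), Gbp6 (22.2) and Tgtp1 (23.2) were, like Iigp1 and Gbp4 and unlike Irgm2, at least 2 times as high in DT 3 as in any other mouse, at low counts. Genes of this family are near copies of each other, so their reads could be split between them in counting. Outside the family, Cxcl9 (108) and Cxcl10 (49.4) were also at the highest level of the DT group in DT 3. PBS 1 was higher for Cxcl9 (119) and PBS 3 for Cxcl10 (63.4). Ifng is listed without a value. In DT 3 the natural killer markers summed to 9.07 normalized counts and the T cell markers to 524, of which Thy1 made most, and Cd74 of the Langerhans cell list was at 564, the lowest of the 11 mice. The part of these cells in the result was not tested.

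The third question was which of 10 chosen pairs of members varied together. In these pairs group-centred log2 values were correlated over the 11 mice, with two-sided exact permutation tests over the 86400 orders within groups and adjustment over the 10 pairs. Of the pairs, 6 passed an adjusted p under 0.05. The test is against no relation, and the median over all 630 pairs of members was already 0.65, so a pair that passed is not shown to be closer than any other 2 members. Isg15 followed Irf7 (r = 0.96, exact permutation p = 0.00013, adjusted 0.00093; rho = 0.92, p = 0.00068) and was followed by Usp18, its protease (r = 0.93, exact permutation p = 0.00019, adjusted 0.00093; rho = 0.91). Both passed without the 2 mice farthest from the median of the first gene, here PBS 2 and DT 2 (r = 0.89 in each, adjusted p = 0.038 and 0.028, exact permutation over 9 mice). Oas2 with Oas3 (r = 0.95, rho = 0.83), Parp9 with Dtx3l (r = 0.85, rho = 0.82), Igtp with Irgm1 (r = 0.82, rho = 0.70) and Irf1 with Gbp2 (r = 0.71, rho = 0.82) had adjusted p-values of 0.0019, 0.0084, 0.0015 and 0.034 by exact permutation.

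Without the 2 farthest mice, which differ from pair to pair, none of these 4 pairs passed (adjusted p from 0.065 to 0.084, exact permutation over 9 mice). Oas2 with Oas3 was then at r = 0.77 (without PBS 2 and DT 2), Parp9 with Dtx3l at 0.85 (without PBS 5 and DT 2), Igtp with Irgm1 at 0.81 (without PBS 2 and DT 3) and Irf1 with Gbp2 at 0.64 (without PBS 2 and DT 5). The other 4 pairs did not pass with all 11 mice. They were Irf9 with Stat2 (r = 0.53, rho = 0.54, adjusted p = 0.224), Ifit1 with Ifit3 (r = 0.42, rho = 0.23, adjusted p = 0.269), Irf7 with Ifit3 (r = 0.38, rho = 0.34, adjusted p = 0.289) and Irf7 with Gbp2 (r = 0.24, rho = 0.25, adjusted p = 0.499), all by exact permutation. Both pairs with Ifit3 hold a gene with a mean of 6.80 normalized counts. Irf7 and Gbp2, which are both interferon targets, had r = -0.26 without PBS 2 and DT 2.

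The rest of the pathway was read from lists of 136 other genes, of which 111 had values. Of these, 1 was called higher after DT, against 0.313% of all genes, and 0 were called lower, against 0.245%. A single call in lists of this size does not set these genes apart from all genes. Of 21 interferon genes, 2 had values. Ifne, an interferon of epithelia, was at 0 in 4 of 5 PBS-treated mice and in DT 3, and reached 3.44 normalized counts, where a count of 0 allows up to 2.53 to 3.44 depending on the mouse. Ifnz lay between 0 and 5.07. In the list of receptors and their signaling, 0 of 10 passed, with Ifnar1, a receptor chain for type I interferon, at 465 to 567 after PBS and 497 to 595 after DT. Ifnlr1, a receptor chain for type III interferon, had the smallest p of the list, with 369 ± 28.6 normalized counts (SD, n = 5) in the PBS group and 319 ± 13.4 (SD, n = 6) in the DT group (log2 fold change -0.21, limma adjusted p = 0.240). Il10rb, the other chain of that receptor, was next (log2 fold change -0.13, limma adjusted p = 0.602).

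Upstream of interferon, 0 of 16 genes of sensing and signaling passed the test. Ddx58, which encodes the RNA sensor RIG-I, had the smallest p, with 252 ± 40.1 normalized counts (SD, n = 5) in the PBS group and 191 ± 26.9 (SD, n = 6) in the DT group (log2 fold change -0.39, limma adjusted p = 0.213; 0.0996 without PBS 4). Traf3, an adaptor of this signaling, was next (log2 fold change -0.15, limma adjusted p = 0.408). Of 12 negative regulators with values, Socs3 rose after DT. It had 535, 329, 337, 1378 and 326 normalized counts after PBS, and 864, 1516 and 1855 after DT (log2 fold change 1.5, 95% interval 0.85 to 2.15, limma adjusted p = 0.061). PBS 4 stood among the DT values, and Socs3 correlated with the member mean at 0.08. Leaving out any 1 of 8 mice (PBS 1 to PBS 3, DT 1 and DT 3 to DT 6) ended this call, although the log2 fold change stayed between 1.36 and 1.88 over all 11 such fits. PBS 4 was also the highest PBS-treated mouse in each of the 10 immediate early genes. DT 2 was lowest and DT 6 highest after DT for Socs3, Fos, Jun, Junb, Egr1, Atf3, Dusp1 and Zfp36. In Fosb and Nr4a1 another mouse was lowest, and in Ier2 another was highest. This likeness was looked at after the values were seen, and a relation was not tested. Ptpn2, a phosphatase of Jak and Stat proteins, had the next smallest p of the negative regulators (log2 fold change 0.15, limma adjusted p = 0.400). Socs1, which restrains the interferon receptors, did not pass (log2 fold change -0.18, limma adjusted p = 0.833). Pias1, a SUMO ligase, ran opposite to the members, at a correlation of -0.91, the lowest of all 13477 genes. It did so over a narrow range of 779 to 979 normalized counts, with an SD within groups of 0.07 on the log2 scale, against 0.05 from counting alone. Of the 12 negative regulators, 1 (8.33%) lay below -0.5, against 11.1% of all genes. Above 0.5 were 4 (33.3%), against 9.63% of all genes.

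Of 73 other interferon-stimulated genes, 71 had values and 0 passed the test. The log2 fold changes had a median of -0.12, and 25.4% were above 0, against 47.3% of all genes. At an unadjusted p under 0.05, 0 genes were higher and 7 (9.86%) lower, against 5.31% and 6.19% of all genes. Trim56, a ubiquitin ligase that acts in sensing of DNA, had 650 ± 74.7 normalized counts (SD, n = 5) in the PBS group and 536 ± 24.1 (SD, n = 6) in the DT group (log2 fold change -0.27, limma adjusted p = 0.183). It passed without PBS 2 (-0.34, limma adjusted p = 0.040). Slfn8 had 19.3 ± 6.48 and 9.79 ± 4.84 (log2 fold change -0.97, limma adjusted p = 0.257). Of the 50 whose mean was 10 normalized counts or more, 24 (48.0%) had a correlation above 0.5 with the mean of the 36 members, against 9.63% of all genes.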

How the data were processed

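The authors sequenced stranded mRNA libraries of epithelium from 5 Langerin-DTR mice given PBS and 6 given DT. Reads were trimmed, aligned with TopHat and counted per gene with htseq-count, genes with few reads were left out, and the authors deposited normalized counts, each count divided by the DESeq2 size factor of its mouse. The methods of the study name build GRCm38, whereas the processing notes of the submitters name GRCm39, cutadapt 2.10, TopHat2 2.1.1, HTSeq 2.01 and DESeq2 1.36.0. The build of the table was not settled, so no gene coordinates were taken from it.

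Of 55414 genes listed, 19170 had values. Divided by the step of a single read, 100% of the values per mouse were whole within a tolerance of 0.05 reads, which gave back 17509328 to 24325513 reads per mouse. Depth limits genes with a mean under 10 normalized counts, 6 of the members among them, which were left out of spread and correlations (apart from Ifit3 in 2 pairs) and not of the test. Intervals and limits for a count of 0 (3 reads) cover counting error only.

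Differences came from limma 3.58.1 (R 4.3.3; intensity trend), fitted to log2(normalized count + 1) over all 11 mice and all 19170 genes, with Benjamini-Hochberg adjustment and the threshold of 0.1 used by the study. A fold change on this scale understates that of low genes. Planned count tests on the recovered reads were not run, and these reads describe depth only. The procedure was tested on simulated data. Pairs of genes were tested with two-sided exact permutations. Exon lengths came from GENCODE release 21 by identifier, and promoters from RefSeq by symbol.

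The members, the lists and the rule for named genes were chosen with earlier results of these data known. Values in each PBS-treated mouse, and the lowest, median and highest after DT, are given for the 3 smallest unadjusted p-values in each direction, the 4 largest and 2 smallest spreads, the transcription factors and members with a mouse far from the others; in other lists the genes past the threshold and those with the smallest p are given. Genes named for DT 3 or for their correlation, and Socs1, Ifnar1 and Siglech, were chosen after their values were seen. The labels name no batch.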

Additional observations from a re-analysis of the deposited data

Results flagged for a closer look

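Values per mouse were examined for a mouse far from the rest of its group, with a Dixon test at 95%, in 84 groups of mice (42 genes in 2 groups), of which chance flags about 1 in 20. In 4 of them a mouse stood apart, which is about as many as chance flags at that rate. Gbp2 had 566 normalized counts in DT 3, against 55.0 to 168 in the other DT-treated mice. Igtp had 191 in the same mouse, against 47.3 to 62.3. Ifit2 had 80.2 in DT 1, against 46.1 to 57.8 in the rest of the DT group. Oas2 had 5.83 in PBS 2, against 33.2 to 38.8 in the rest of the PBS group. The causes were not tested.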

How the results depend on the processing

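In each of the 20 alternative fits, 0 of 42 members were called in either direction by limma, with 0 to 2 members at an unadjusted p under 0.05 higher after DT and 1 to 6 lower, and the smallest adjusted p of a member between 0.124 and 0.569. The median log2 fold change of the members lay between -0.19 and 0.04 in fits that left out 1 mouse, so its sign is not determined. Planned tests with edgeR and DESeq2 on reads recovered from the values were not run. The number of all genes called moved from 107 to 189 with array weights, and from 27 to 259 when 1 mouse was left out. Same-numbered PBS and DT mice correlated from -0.23 to 0.32 in their deviations from the group means over 13477 genes. Mice of different numbers were not compared, so whether the numbers pair the mice was not settled. With a replicate block by title number, where DT 6 has no partner, 35 genes were called. By library number, where DT 5 has none, 0 were called (1404 at an unadjusted p under 0.05). With the replicate block, Gbp2 was at -0.0491 by title number, and Ifi44 at -0.17 and Irf1 at 0.0106 by library number.

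Without PBS 2 and DT 2, an alternative chosen after seeing the data, 42 genes were called, the median SD of the members was 0.35 in place of 0.50, and the log2 fold changes of Oas3 (-0.26) and Gbp2 (-0.17) changed sign; Ifnz was at 0.0077 with array weights. Without 1 mouse the median SD was 0.41 to 0.53, and the log2 fold change was -0.40 to 0.27 for Gbp2, -0.36 to 0.49 for Ifi44, -0.89 to 0.0872 for Ifit1, -0.0327 to 0.56 for Igtp, -0.16 to 0.0106 for Irf1, -0.14 to 0.42 for Irf7, -0.50 to 0.60 for Oas3, -0.0569 to 0.77 for Rtp4, -0.15 to 0.0107 for Stat2 and -0.45 to 0.0707 for Ifnz. The 6 related pairs passed with another pseudocount, TMM scaling and quantile normalization, and 2 passed without the 2 mice farthest from the median of the first gene of each pair, which differ between pairs; Irf7 with Gbp2 turned to -0.26 there (without PBS 2 and DT 2). Depth limits the 6 members under 10 normalized counts. The cause of these changes was not tested.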
